A study of Saccharomyces cerevisiae with 4 samples.

Results

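Peroxisomes are the only site of fatty acid beta-oxidation in the yeast *Saccharomyces cerevisiae*. Proteins called peroxins, encoded by the *PEX* genes, build the organelle and import its enzymes, and the first enzyme of beta-oxidation releases hydrogen peroxide inside it. Many of these genes are repressed by glucose and induced on oleate, a fatty acid, through the transcription factor pair Oaf1 and Pip2 together with Adr1. The transcripts of 37 genes chosen by name were followed across 4 arrays, out of 5449 genes measured. They were 24 *PEX* genes and 13 genes of fatty acid oxidation, which included the enzymes, the transporters and the regulators *OAF1* and *PIP2*. Each of the 37 was read by 1 probe set.

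The 4 samples of total RNA came from wild type cells and from the sod1Δ mutant, which lacks the gene of the copper-zinc superoxide dismutase. Each strain was measured without H2O2 and after 20 min in 0.4 mM H2O2. All the cells were of a haploid strain that the labels call FM391, grown at 30 °C to an OD600 of about 0.4 in synthetic complete medium without leucine. The labels do not give the carbon source, the number of cultures or how the deletion was made. There was 1 array per strain and condition, so no value below has a replicate check, and no test was possible. A gene is called higher or lower where its level differed at least 2-fold between 2 arrays, which is 1 on the log2 scale, and the share of all genes past the same fold is given beside the members' counts. Strain differences are sod1Δ minus wild type, and responses are treated minus untreated.

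Values are log2 signals as deposited by the authors. The background floor of 2.31 was the 95th percentile of 1746 probe sets for another yeast, *Schizosaccharomyces pombe*, on the same arrays. The signal of *SOD1* itself was 14.21 (untreated) and 14.31 (treated) in wild type, and 2.40 and 2.42 in sod1Δ, which follows the labels. Markers of mating type a such as *STE2* (12.42 to 12.74) were bright in every sample, and the alpha factor gene *MF(ALPHA)1* was under the floor (2.18 to 2.22), although the other alpha markers *MF(ALPHA)2*, *STE3* and *SAG1* lay above it, between 6.72 and 8.88. For genes with 2 probe sets above the floor, the change after H2O2 in wild type differed between the probe sets by a median of 0.24 on the log2 scale, and by at least 1 in 8 of 41 such genes. For the response in sod1Δ the median was 0.37. The 18 hybridization controls, picked by name, differed by a median of -0.44 (-1.40 to 0.01) between the wild type arrays and 0.11 (-0.12 to 0.20) between the sod1Δ arrays. For sod1Δ against wild type the medians were -0.22 untreated (-0.85 to -0.02) and 0.28 treated (0.05 to 0.65). Single controls thus passed 2-fold between the wild type arrays only. Since the arrays measured bulk RNA, fewer cells with a transcript and less RNA per cell cannot be told apart.

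**Figure D1:**
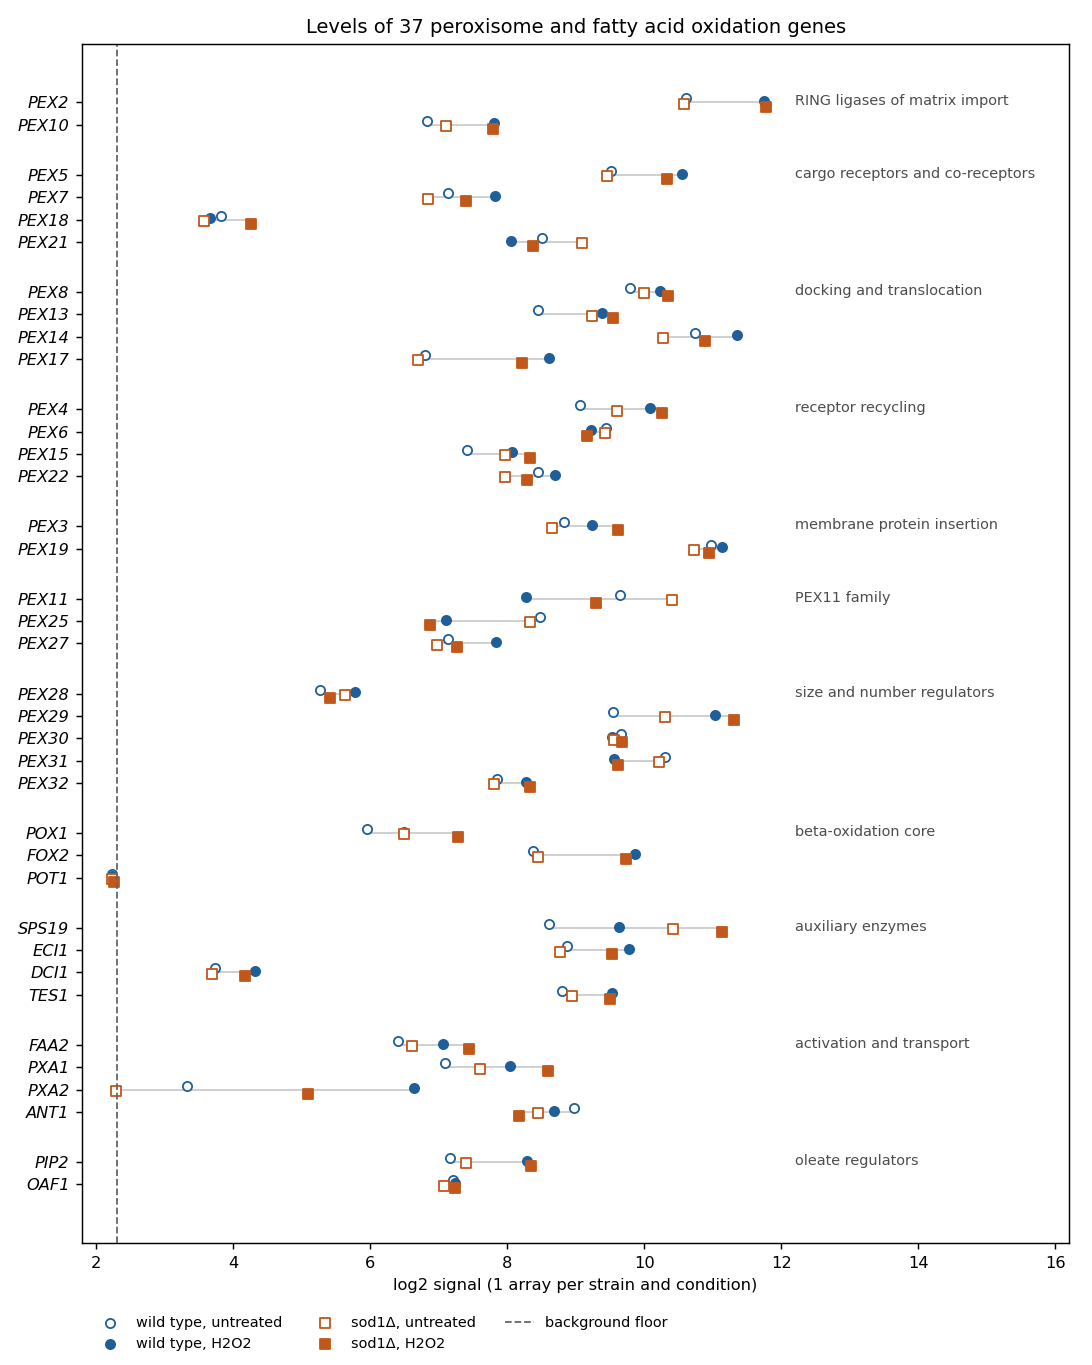
Log2 signal of each of the 37 genes on the 4 arrays, grouped by role, with 1 point per array (circles, wild type; squares, sod1Δ; open, untreated; filled, H2O2) and a dashed line at the background floor of 2.31. *PXA2* spans the widest range of the genes, from 2.29 to 6.64, and *POT1* lies under the floor on all 4 arrays.

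The first question was how these genes respond to H2O2 in wild type. Of the 36 genes above the floor, 28 had a change above 0 (77.8%, against 48.2% of all genes), mostly of under 2-fold. In all, 9 were higher (17.1% of all genes were) and 2 were lower (16.1% of all genes were), and the median change was 0.64 on the log2 scale against -0.03 over all genes. The 9 were the transporter gene *PXA2*, the enzyme genes *FOX2* and *SPS19*, the regulator *PIP2* and the peroxin genes *PEX2*, *PEX4*, *PEX5*, *PEX17* and *PEX29*. The 2 lower genes were *PEX11* and *PEX25*, whose products act in growth and division of the organelle. Upward changes of at least 0.5 were seen for 22 of the 36 genes, or 61.1%, against 28.1% of all genes, and downward changes of that size for 3, or 8.33%, against 29.3%. The threshold ran through a dense range, since 6 members had a size of change between 0.9 and 1.1, from *PXA1* at 0.94 to *PEX5* at 1.03. *PEX10* at 0.99 and *PEX4* at 1.01 stood nearest to it on either side. With 32 added to the linear signal, 6 members were higher, beside 763 of 5358 genes.

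The same question in sod1Δ gave 4 higher genes of 36 (14.6% of all genes were higher) and 2 lower (15.8% of all genes were lower). The 4 were *PXA2*, *PEX17*, *FOX2* and *PEX2*, all also higher in wild type, and the 2 lower genes were again *PEX11* and *PEX25*. The median change was 0.56 against -0.03 over all genes, 20 of the 36 were up by at least 0.5, or 55.6% against 26.6% of all genes, and 4 were down by as much, or 11.1% against 27.8%. *PEX29* stood just under the threshold at 1.00, and after quantile normalization of the *S. cerevisiae* probe sets 7 genes were higher, with the addition of *PEX29*, *PXA1* and *PEX18*. After that step 826 of 5345 genes were higher over the whole array. Of the 12 genes of fatty acid oxidation above the floor, 10 were up by at least 0.5 in wild type and 9 in sod1Δ, and 0 were down by as much in either strain. Of the 24 *PEX* genes, 12 and 11 were up and 3 and 4 were down by at least 0.5.

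**Figure D2:**
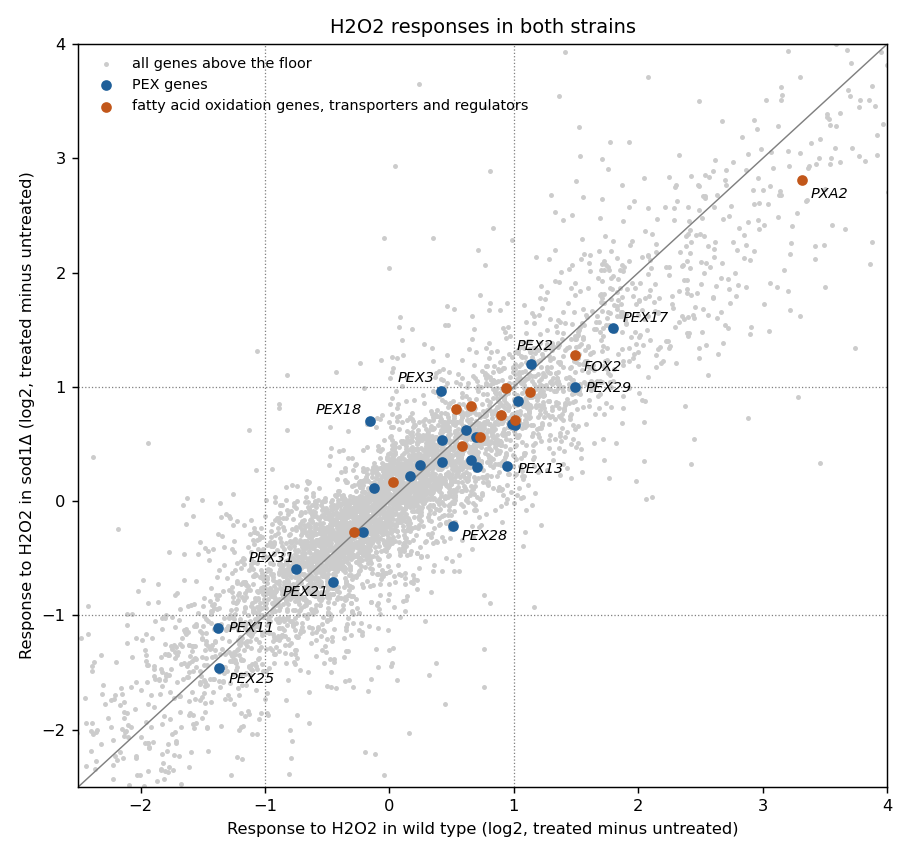
Response to H2O2 in wild type (horizontal axis) and in sod1Δ (vertical axis), log2 treated minus untreated, with 1 point per gene above the floor (grey, all genes; blue, *PEX* genes; orange, genes of fatty acid oxidation), a diagonal for equal responses and dotted lines at 2-fold. Genes outside the axes are not shown; *PXA2* stands at 3.31 and 2.81, the latter from an untreated level under the floor, *PEX11* and *PEX25* lie in the lower left, and many of the members lie between 0 and 1 on both axes.

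The enzymes of the beta-oxidation cycle were read for 2 of the 3 core genes. *FOX2*, encoding the multifunctional enzyme of the middle steps, was at 8.37 in wild type without and 9.86 with H2O2, and at 8.46 and 9.73 in sod1Δ. It was therefore higher after H2O2 by 2.81-fold and 2.42-fold, and the treated arrays lay above both untreated arrays. *POX1*, encoding the acyl-CoA oxidase that makes hydrogen peroxide, was at 5.95 and 6.49 in wild type and at 6.49 and 7.29 in sod1Δ. Its responses of 0.54 and 0.80 were under 2-fold, and so were its strain differences, which had the same sizes. *POT1*, encoding the thiolase of the last step, was at 2.24 without and 2.24 with H2O2 in wild type, and at 2.23 and 2.26 in sod1Δ. It was not above background on any array, so nothing can be said of its response.

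The auxiliary enzymes, which handle unsaturated fatty acids or split acyl-CoA, moved in a narrow band after H2O2. All 4 changes lay between 0.58 and 1.01 in wild type and between 0.48 and 0.76 in sod1Δ. *ECI1*, encoding an enoyl-CoA isomerase, was at 8.88 and 9.78 in wild type and at 8.77 and 9.52 in sod1Δ. *TES1*, encoding a peroxisomal thioesterase, was at 8.80 and 9.53 and at 8.94 and 9.50. *DCI1*, which encodes a protein related to Eci1, was dim throughout, at 3.74 and 4.32 and at 3.70 and 4.18. For these 3 genes the widest gap between the strains was -0.25, for *ECI1* after H2O2.

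*SPS19*, encoding the dienoyl-CoA reductase needed for certain unsaturated fatty acids, differed from the other auxiliary genes in its strain difference. It was at 8.62 without and 9.63 with H2O2 in wild type, and at 10.43 and 11.14 in sod1Δ. Both sod1Δ arrays were above both wild type arrays. The untreated level was 3.50-fold higher in sod1Δ and the treated level 2.84-fold higher, and both calls held after quantile normalization, after centring and with 32 added to the linear signal. The responses to H2O2 were 1.01 and 0.71. The strain difference of *SPS19* exceeded that of *ECI1* by 1.92 without and 1.76 with H2O2, while their responses differed by 0.11 and -0.04.

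Transport into the organelle held the largest response among the members. Pxa1 and Pxa2 together form 1 ABC transporter, which brings long-chain acyl-CoA into the peroxisome. *PXA2* was at 3.33 without and 6.64 with H2O2 in wild type, and at 2.29 and 5.10 in sod1Δ. Its untreated sod1Δ level was not above the floor. The response was 9.93-fold in wild type and at least 6.89-fold in sod1Δ, in deposited signal. *PXA1* was at 7.10 and 8.04 in wild type and at 7.60 and 8.59 in sod1Δ, responses of 0.94 and 0.99. The partners also went opposite ways between the strains. *PXA1* differed by 0.50 untreated and 0.56 treated, while *PXA2* was lower in sod1Δ by at least 2.02-fold untreated, a bound set by the floor, and differed by -1.54 treated.

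The size of the *PXA2* values depended on its dim signal. With 32 added to the linear signal, which damps dim probe sets, its response was 1.65 in wild type and 0.84 in sod1Δ. Its strain differences then came to -0.19 untreated and -0.99 treated, under 2-fold. The untreated difference also missed 2-fold after quantile normalization (-0.75) and after centring each array on its median (-0.998). No setting turned the direction.

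The other genes of activation and transport had smaller changes. *FAA2*, encoding the peroxisomal synthetase that activates medium-chain fatty acids, was at 6.41 and 7.07 in wild type and at 6.62 and 7.45 in sod1Δ. *ANT1*, encoding the carrier that supplies ATP to the organelle for this activation, was at 8.97 and 8.68 and at 8.45 and 8.17. Its values after H2O2 were lower by -0.29 and -0.27 on the log2 scale, and it was the 1 gene of the 12 on fatty acid oxidation above the floor with a change below 0 in each strain.

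The 2 oleate regulators had unequal responses. *PIP2* was at 7.17 without and 8.30 with H2O2 in wild type, and at 7.39 and 8.35 in sod1Δ, which is 2.19-fold and 1.94-fold higher after H2O2. *OAF1* was at 7.21 and 7.24 in wild type and at 7.07 and 7.24 in sod1Δ, a range of less than 1.5-fold. *PIP2* is itself an oleate-induced gene, while *OAF1* is known to be expressed without oleate. The *PIP2* response exceeded that of *OAF1* by 1.11 in wild type and 0.79 in sod1Δ.

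Import of matrix proteins was covered by 14 *PEX* genes, of which 4 were higher in wild type and 2 in sod1Δ, with none lower in either strain (medians 0.68 and 0.59). Those are 28.6% and 14.3% of the 14, against 17.1% and 14.6% of all genes, so the count in sod1Δ was near the background. *PEX17*, encoding a subunit of the docking complex on the membrane, had the largest change of the 14. It was at 6.81 and 8.61 in wild type and at 6.70 and 8.22 in sod1Δ, or 3.48-fold and 2.86-fold higher. Its docking partner *PEX14* was at 10.74 and 11.36 and at 10.27 and 10.89, a change of 0.62 in each strain. *PEX13*, the other docking gene, was at 8.45 and 9.39 in wild type and at 9.24 and 9.54 in sod1Δ. Its response of 0.94 in wild type stood against 0.31 in sod1Δ, and its untreated level was higher in sod1Δ by 0.79. *PEX8*, whose product links docking to the ubiquitin ligases from inside the organelle, changed by 0.43 and 0.34.

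The receptors and the ubiquitin ligases came next. *PEX5*, encoding the receptor for enzymes with a C-terminal targeting signal, was at 9.51 and 10.55 in wild type and at 9.46 and 10.34 in sod1Δ, responses of 1.03 and 0.88. *PEX7*, encoding the receptor for the N-terminal signal, changed by 0.70 and 0.56. Of its co-receptor genes, *PEX21* was at 8.51 and 8.06 in wild type and at 9.09 and 8.38 in sod1Δ, with responses of -0.45 and -0.71. *PEX18*, a dim transcript, was at 3.82 and 3.67 in wild type and at 3.57 and 4.27 in sod1Δ, responses of -0.16 and 0.70. *PEX2*, encoding a RING ubiquitin ligase of the import machinery, was at 10.61 and 11.75 and at 10.58 and 11.78, so that the strains nearly coincided in each condition and the response was 2.20-fold and 2.29-fold. *PEX10*, encoding another such ligase, was at 6.83 and 7.82 and at 7.12 and 7.79.

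Recycling of the receptors depends on the ubiquitin-conjugating enzyme Pex4, its membrane anchor Pex22, the ATPase Pex6 and the anchor of that ATPase, Pex15. *PEX4* was at 9.07 and 10.08 in wild type and at 9.60 and 10.26 in sod1Δ, responses of 1.01 and 0.67. The other 3 genes stayed under 2-fold in all comparisons. *PEX15* changed by 0.65 and 0.36, *PEX22* by 0.25 and 0.32, and *PEX6* by -0.22 and -0.27. *PEX3* and *PEX19*, needed to place proteins in the peroxisomal membrane, changed by 0.41 and 0.16 in wild type and by 0.96 and 0.22 in sod1Δ.

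The *PEX11* family held the 2 lower genes. *PEX11*, whose product elongates the membrane before division, was at 9.65 without and 8.27 with H2O2 in wild type, and at 10.41 and 9.30 in sod1Δ. It was 2.60-fold lower after H2O2 in wild type and 2.16-fold lower in sod1Δ, and each sod1Δ array was above the wild type array of the same condition. *PEX25* was at 8.48 and 7.11 in wild type and at 8.34 and 6.88 in sod1Δ, or 2.58-fold and 2.75-fold lower. Both treated arrays lay under both untreated arrays for *PEX25*, and the strains differed by at most -0.23. *PEX27*, the remaining gene of the family, was at 7.14 and 7.84 and at 6.97 and 7.27, with responses of 0.70 and 0.30. Its response exceeded that of *PEX25* by 2.07 in wild type and 1.76 in sod1Δ. The calls for *PEX11* and *PEX25* after H2O2 held after quantile normalization, after centring and with 32 added.

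The 5 genes that set peroxisome size and number did not move together. *PEX29* was at 9.55 and 11.03 in wild type and at 10.31 and 11.31 in sod1Δ, or 2.81-fold and 2.00-fold higher after H2O2. *PEX28*, which acts in the same process, was dim at 5.27 and 5.78 and at 5.63 and 5.42. Among the related genes *PEX30*, *PEX31* and *PEX32*, whose products reside in the endoplasmic reticulum, *PEX31* changed by -0.75 and -0.60, *PEX32* by 0.42 and 0.54, and *PEX30* by -0.13 and 0.11. The *PEX32* and *PEX31* responses thus differed by 1.17 in wild type and 1.13 in sod1Δ.

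**Figure D3:**
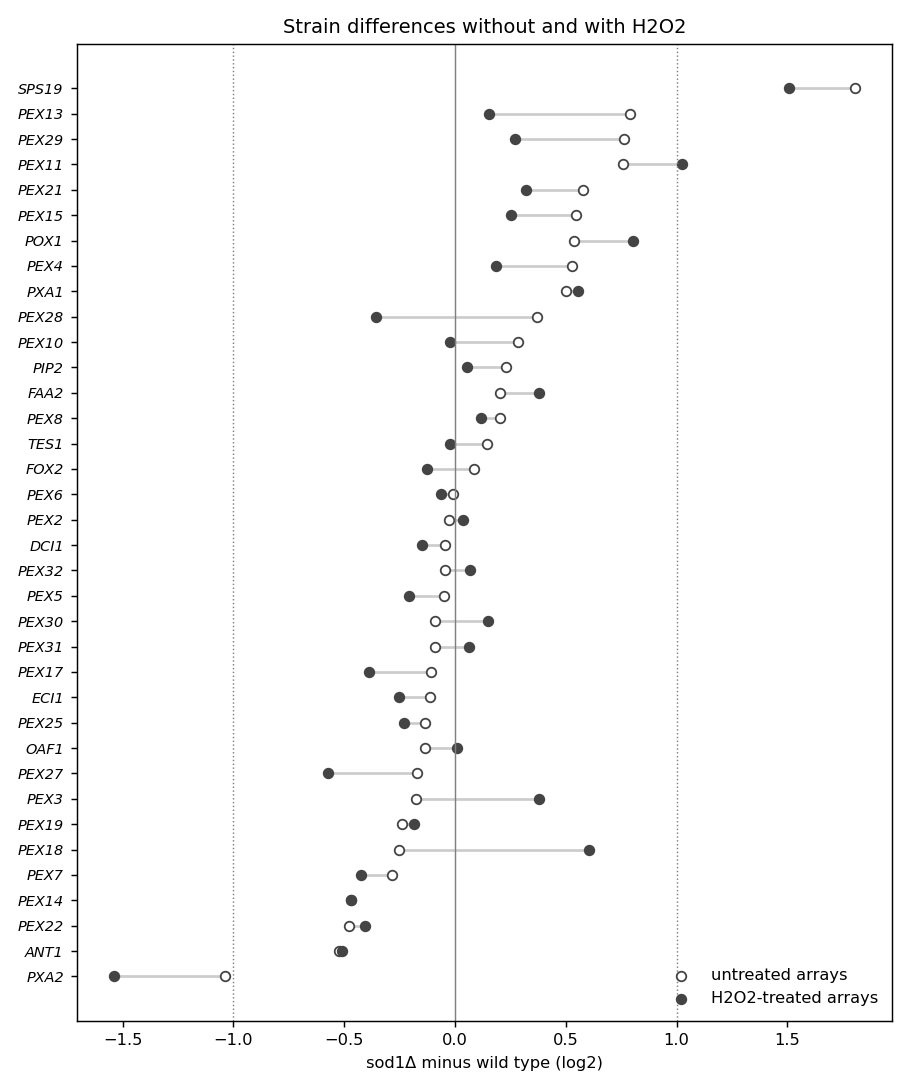
Difference between sod1Δ and wild type (log2) for the 36 genes above the floor, on the untreated arrays (open points) and on the treated arrays (filled points), ordered by the untreated difference, with dotted lines at 2-fold. *SPS19* stands apart at the top (1.81 and 1.51) and *PXA2* at the bottom (-1.04, from an untreated sod1Δ level under the floor, and -1.54), and *PEX11* passes 2-fold on the treated arrays (1.02).

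The next question was how the strains differed. Untreated, 1 of 36 genes was higher in sod1Δ, *SPS19* (3.71% of all genes were higher), and 1 was lower, *PXA2* (3.18% of all genes were lower). The median difference was -0.04 against -0.07 over all genes, and it was above 0 after quantile normalization (0.03) and centring (0.00222). After H2O2, 2 genes were higher, *SPS19* and *PEX11* (3.07% of all genes were higher), and *PXA2* was lower (6.33% of all genes were lower), with a median of 0.02 against -0.05. By at least 0.5, 5 were up, or 13.9% against 11.6%, and 3 were down, or 8.33% against 18.5%. Quantile normalization left 1 gene higher and 0 lower untreated. After H2O2 it gave 4 genes higher and 1 lower, adding *PEX18* and *POX1*. Over all genes it gave 229 higher and 129 lower of 5343 untreated, and 230 higher and 215 lower of 5339 after H2O2. With 32 added to the linear signal, *SPS19* alone stayed past 2-fold in each condition, and *PEX11* (0.95) and *PXA2* (-0.99) fell short after H2O2. The nearest gene under the threshold was *PEX13* at 0.79 untreated and *POX1* at 0.80 treated.

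The design text of the study looks for genes whose induction was attenuated by more than 50% without *SOD1*. None of the 9 members induced in wild type met this, against 10.9% of all induced genes. None of the 4 induced in sod1Δ had a fold under 50% of it in wild type, against 7.54%. With only 9 and 4 genes, finding none cannot be told apart from those shares. *PEX4*, *SPS19* and *PEX5* rose by only 1.01, 1.01 and 1.03 in wild type. They could meet the rule only with a sod1Δ response near 0 or a fall. No member's responses differed by 2-fold or more in deposited signal. The difference, sod1Δ response minus wild type response, had a median of -0.10 against -0.02 over all genes, and lay within 0.5 in either direction for 31 of 36 members, or 86.1%, against 76.5% of all genes. It ran from -0.73 for *PEX28* to 0.86 for *PEX18*. Among the members induced in wild type it was -0.49 for *PEX29*, -0.34 for *PEX4* and -0.30 for *SPS19*. For *PXA2* the deposited values gave -0.505, a size that is uncertain since the untreated sod1Δ level was under the floor. *PXA2* is still counted among the 36 here and in the correlation below, where its responses are the largest. Over the 36 genes, wild type and sod1Δ responses had a Pearson r of 0.93, each taken from its own pair of arrays, and the r over all 5365 genes above the floor was 0.92. Genes are not independent replicates, so this describes these arrays.

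**Figure D4:**
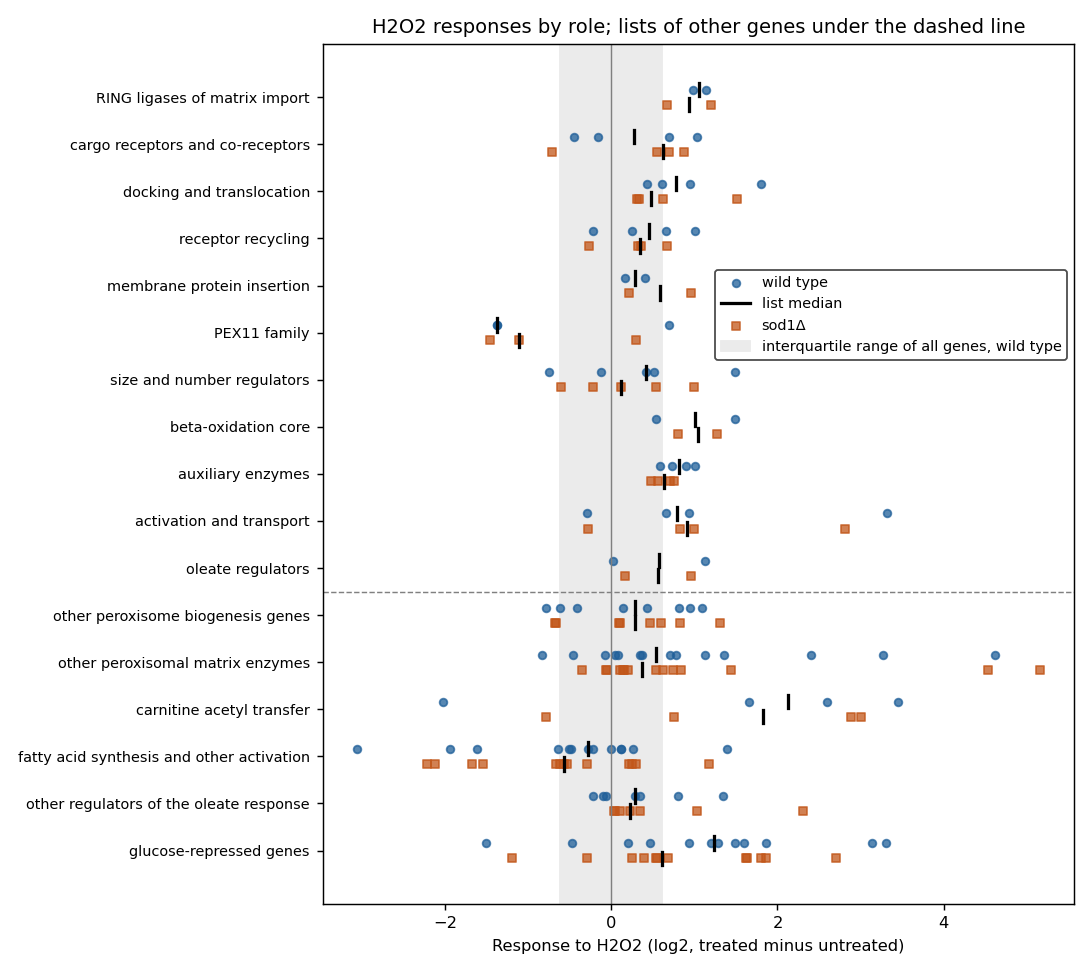
Responses to H2O2 (log2, treated minus untreated) by role, with 1 point per gene above the floor (blue circles, wild type; orange squares, sod1Δ), black ticks at each list's median and a grey band for the interquartile range of all genes in wild type. Lists of other genes lie under the dashed line; carnitine acetyl transfer reaches medians of 2.13 and 1.82, and fatty acid synthesis has medians of -0.28 and -0.56.

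Genes outside the list were read for comparison. For these lists the shares of all genes to hold the counts against are again 17.1% higher and 16.1% lower in wild type, and 14.6% and 15.8% in sod1Δ. Acetyl units leave the peroxisome partly as acetylcarnitine, and of 4 carnitine genes 3 were higher and 1 lower in wild type, and 2 higher and 0 lower in sod1Δ. *CRC1*, encoding the mitochondrial carnitine carrier, was at 4.65 and 8.11 in wild type and at 6.03 and 9.04 in sod1Δ. *CAT2*, encoding the carnitine acetyltransferase of peroxisomes and mitochondria, was at 5.72 and 8.32 and at 5.46 and 8.34. *YAT1*, encoding the acetyltransferase of the outer mitochondrial membrane, was at 8.20 and 6.18 and at 8.26 and 7.47, while *YAT2* of the cytosol changed by 1.65 and 0.76. *YAT1* was higher in treated sod1Δ than in treated wild type, by 1.29.

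Of 14 other enzymes found in the peroxisomal matrix, 5 were higher and 0 lower in wild type, and 3 higher and 0 lower in sod1Δ (35.7% and 21.4% higher). *CTA1*, encoding the peroxisomal catalase that breaks down hydrogen peroxide, was at 6.93 and 11.55 in wild type and at 6.05 and 11.21 in sod1Δ. The malate synthase gene *MLS1* changed by 3.27 and 4.53, from dim untreated levels of 3.54 and 3.11, so the size of these changes is uncertain. The gene *STR3* of sulfur amino acid metabolism changed by 2.40 and 1.45, and the nucleotide hydrolase gene *PCD1* by 1.36 and 0.74. Between the strains, the lipase gene *LPX1* differed by -1.09 untreated and *STR3* by -1.02 treated. Of 12 other genes of biogenesis, division and turnover, 8 were matched to a probe set. In this group 1 was higher in each strain, the fission gene *FIS1* in wild type (1.09) and the gene *ATG36* of the pexophagy receptor in sod1Δ (1.30), which is 12.5% of the 8 and under the share of all genes. *ATG36* was also higher in treated sod1Δ than in treated wild type, by 1.06.

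Of 13 genes of fatty acid synthesis and other activation, 3 were lower, 1 higher and 9 under 2-fold in wild type, against 4, 1 and 8 in sod1Δ (medians -0.28 and -0.56). The elongase gene *ELO2* changed by -3.06 and -2.21, the acyl-CoA synthetase gene *FAA3* by -1.94 and -2.12, and the elongase gene *ELO3* by -1.62 and -1.54. The desaturase gene *OLE1* was past 2-fold in sod1Δ (-1.67), with -0.64 in wild type. *SPT23*, which encodes a regulator of *OLE1*, changed by 1.39 and 1.18. None of the 13 differed 2-fold between the strains in either condition.

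Of 7 other regulators of the oleate response, 1 was higher after H2O2 in wild type and 2 in sod1Δ (14.3% and 28.6%), with none lower. Between the strains, 1 was higher in sod1Δ untreated and 2 treated, with none lower, beside 3.71% and 3.07% of all genes higher. *ADR1* passed 2-fold in all 4 comparisons. It was at 7.81 and 9.15 in wild type and at 9.36 and 10.39 in sod1Δ, so both sod1Δ arrays were above both wild type arrays. That order was also seen for *SPS19* and for *OAF3* of this list, and a link between *ADR1* and *SPS19* was not tested. *CAT8*, encoding another activator of glucose-repressed genes, was at 3.86 and 4.21 in wild type and at 4.21 and 6.52 in sod1Δ. The remaining regulators of this list were under 2-fold in all comparisons. Of 12 glucose-repressed genes outside the peroxisome, 7 were higher and 1 lower after H2O2 in wild type (median 1.24). In sod1Δ 5 were higher and 1 lower (median 0.62), which puts 58.3% and 41.7% of them higher. Largest in wild type were *SIP4* (3.30, and 1.62 in sod1Δ), *HXT5* (3.14 and 2.71), *ALD4* (1.87 and 0.68) and *JEN1* (1.60 and 1.86). *SIP4* and *ALD4* met the attenuation rule in sod1Δ, 2 of the 7 induced in wild type against 10.9% of all induced genes. The lower gene in both strains was *ADH2* (-1.51 and -1.19). Untreated, 5 of the 12 were higher in sod1Δ and 0 lower (median 0.84), led by *ALD4* (1.61) and *HXT5* (1.59), and after H2O2 3 were higher and 0 lower (median 0.48), beside 3.71% and 3.07% of all genes higher. The part of glucose repression in the members' changes was not tested.

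Neighbouring genes were looked up for the 4 members that differed between the strains or were lower after H2O2, by gene order in the RefSeq table of assembly R64. *SPS18*, next to *SPS19* and on the opposite strand by its systematic name, was at 7.17 and 8.17 in wild type and at 6.87 and 8.03 in sod1Δ. Its responses of 1.00 and 1.16 were near those of *SPS19*, but its strain differences were -0.30 and -0.14. *PSY2*, on the other side of *SPS19*, changed by -0.79 and -1.24 after H2O2, with strain differences of 0.61 untreated and 0.16 treated. *FAT3*, a fatty acid uptake gene next to *PXA2*, was at 5.57 and 8.69 in wild type and at 5.73 and 10.22 in sod1Δ. It was higher after H2O2 by 3.12 and 4.49, and in treated sod1Δ over treated wild type by 1.53, where *PXA2* differed by -1.54. *HYM1*, on the other side of *PXA2*, had the same signs as *PXA2* throughout. It changed by 1.13 and 0.73 after H2O2, with strain differences of -0.40 untreated and -0.79 treated. Beside *PEX11*, *PSF3* of DNA replication changed by -1.49 and -1.58 and *SPT20* by 0.22 and 0.28. Beside *PEX25*, *YPL113C* changed by 0.31 and 0.58. On the other side, past 1 gene that was not measured, the arginase gene *CAR1* changed by -0.29 and -1.07. These neighbours were looked up after the members' values were seen.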

How the data were processed

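The 4 samples of total RNA were hybridized to 1 Affymetrix array each, from 50 ng of amplified RNA per the labels' protocols. The authors deposited log2 signals per probe set, from 1.50 to 15.10, made with GCRMA per the submitters' processing notes. No version or settings are given in the sources used here. The method compresses undetected probe sets into a narrow range, so folds that involve that range can be inflated. Of 10928 probe sets, 5498 named 1 *S. cerevisiae* gene through the platform annotation, 1746 belonged to *S. pombe*, 1 listed more than 1 gene and 3683 were unnamed here. Symbols of 12 probe sets were updated by gene identifier, and probe sets of a gene were averaged into 5449 genes, 47 with more than 1 probe set.

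Genes were compared where at least 1 of the 2 arrays exceeded the floor; if the other did not, the fold is a lower bound taken against the floor. With 1 array per group no test or paired fit was possible, so genes were counted at 2-fold. Attenuation meant at least 2-fold induction in 1 strain and a fold in the other under 50% of it. The pairwise comparisons share arrays. Arrays give no counting depth, and their number limits the precision. Steps were tested on simulated data and run in Python 3.11.15 with numpy 2.4.6 and pandas 2.3.3. The members, the roles and the lists were chosen with earlier results of these data known. The named-gene rule gave all 4 levels for members past 2-fold, both oleate regulators and the genes nearest the threshold, and up to 4 members of each other list with the largest changes past 2-fold. Alternatives were quantile normalization, centring on the median, adding 32 to the linear signal, the brightest probe set, a floor at the 99th percentile and a 1.5-fold threshold. Sequences are not used here.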

Additional observations from a re-analysis of the deposited data

Results flagged for a closer look

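For 3 members the response to H2O2 had opposite signs in the strains, which was not tested because each response compares 1 array with another. None passed 2-fold in either strain in deposited signal. The share of all genes with opposite signs was not counted, so the count of 3 has no background to hold it against. The response of *PEX18* was -0.16 in wild type and 0.70 in sod1Δ, a difference of 0.86. After quantile normalization these responses were -0.26 and 1.13, which is past 2-fold in sod1Δ. The response of *PEX28* was 0.51 in wild type and -0.22 in sod1Δ, a difference of -0.73. The response of *PEX30* was -0.13 in wild type and 0.11 in sod1Δ, a difference of 0.24, about the median gap of 0.24 between probe sets of the same gene in wild type. *PEX18* and *PEX28* were dim, with levels of 3.57 to 4.27 and 5.27 to 5.78.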

How the results depend on the processing

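No paired analysis was possible because there was 1 array per group, and no replicate could be left out. Each member has 1 probe set, so choosing the brightest could change no member, and the 1.5-fold threshold could change counts only. Among values that could move, 55 of 70 counts and medians over the members kept their direction and stayed close (counts within 1.5 times, medians within 0.1). Quantile normalization gave 7 genes higher in sod1Δ after H2O2, 0 lower untreated and 4 higher between treated strains. Over all genes it gave 826 of 5345 higher in sod1Δ, 129 of 5343 lower untreated and 230 of 5339 higher between treated strains. It gave 1 member attenuated in wild type, *PEX18* (-0.26 in wild type, 1.13 in sod1Δ). It also turned the untreated median from -0.04 to 0.029, and centring turned it to 0.00222 with 0 lower. Adding 32 gave 6 higher in wild type, a fall from 9 that sits at the limit of 1.5 times, and 3 higher in sod1Δ. Over all genes it gave 763 of 5358 and 651 of 5341 higher. It also gave 0 members lower untreated, and 1 higher and 0 lower between treated strains. There, 71 of 5344 genes were lower untreated, and 115 were higher and 155 lower of 5341 treated. The 1.5-fold threshold, looser by construction, gave 19 higher in wild type, 17 higher and 4 lower in sod1Δ, 4 higher untreated and 4 higher treated. Over all genes, 1386 of 5358 were higher in wild type at that threshold, and 1266 higher and 1349 lower of 5341 in sod1Δ. Between the strains, 460 of 5344 were higher untreated and 482 of 5341 treated. Under both normalizations, the addition of 32 and the higher floor, 9 of 176 values of the 11 genes past 2-fold in any comparison lost a call, 2 gained one and none that was called reversed. Adding 32 took *PEX4* (0.97), *SPS19* (0.96) and *PIP2* (0.98) under 2-fold in wild type and *PEX11* (0.95) between treated strains. It also took *PXA2* under 2-fold in sod1Δ after H2O2 (0.84) and between the strains (-0.19 untreated, -0.99 treated). The other causes were not tested. The higher floor changed no call among these genes. Among the members, signal over background limits *POT1*, *PXA2*, *PEX18* and *DCI1*.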
